A study of Rattus norvegicus with 24 samples.

Results

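Liver gene expression was compared between male and female rats whose mothers had breathed ozone early in pregnancy. The animals were chosen by their labels, with ozone given for both the maternal and the postnatal exposure, and number 12 of the 24 animals measured. Earlier results of these data were known at that choice. They are 6 males (rats 87, 88, 91, 95, 96 and 97, called males 1 to 6) and 6 females (rats 63, 65, 66, 68, 69 and 72, called females 1 to 6). Their dams were exposed to 0.8 ppm ozone for 4 hours on gestation days 5 and 6. All offspring, of both dam groups, also breathed ozone themselves, once a week in weeks 5 to 7 of life. The concentration was 0.4 ppm the first time and 0.8 ppm from week 6 on, and liver was taken at about postnatal day 48. The other 12 animals, 6 males and 6 females, came from dams that breathed filtered air and had the same ozone exposure after birth. They serve here only to test where the sex difference depends on the dams' exposure. There were 12 dams per exposure, but the labels name no dam, litter or strain for an animal. Littermates may therefore be among the replicates, and every p-value treats the animals as independent of each other.

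The rat liver is one of the most sexually dimorphic organs outside the reproductive tract. After puberty, growth hormone leaves the pituitary in sharp pulses in males and more continuously in females, and liver cells read this pattern through the transcription factor STAT5b. Steroid-hydroxylating cytochrome P450 enzymes, sulfotransferases and secreted carrier proteins are the classic outputs that differ between the sexes. The animals studied here were near puberty, when this pattern is being set up.

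The tables list Ensembl rat gene identifiers (IDs) and do not pair them with names. Of 18056 IDs, 0 matched a gene symbol in the reference used here, so the genes below are described by ID, level and direction. The liver identity of the samples, the markers of other liver cell types, the sex-chromosome genes that would check the sex labels, and the classic dimorphic genes could not be looked up. In bulk liver, a change in the share of a cell type and a change in RNA per cell cannot be told apart.

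The males' libraries held 8462290 to 13173627 counts. The females' held 10125983 to 12094568, apart from female 6 with 36232072. The library names take 2 forms, here called library sets 1 and 2, whose meaning the labels do not give. Males 4 and 5 and females 1 and 6 are in set 1, the other 8 animals are in set 2, and the set was a term in the fits reported here that used both. Sex itself moves with other things the labels record: each sex was deposited in its own table, and among these 12 animals the rat numbers and library index numbers of the sexes do not overlap. An effect of any of these and an effect of sex cannot be told apart.

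The liver transcriptomes separated by sex along the main axis of variation. Over log2 CPM (counts scaled by TMM-adjusted library size), the first principal component carried 38.5% of the variance and placed the 6 males between 17.4 and 52.2 and the 6 females between -37.3 and -20.9. Male 2 lay at 52.2, while the other 5 males lay between 17.4 and 30.1. Correlations between animals, taken across genes within these libraries, had a median of 0.971 for pairs of males, 0.975 for pairs of females and 0.951 for pairs of opposite sex. The highest male-female correlation, 0.964, exceeded the lowest within males, 0.945, so single pairs overlapped although the sexes did not overlap on the first component.

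**Figure D1:**
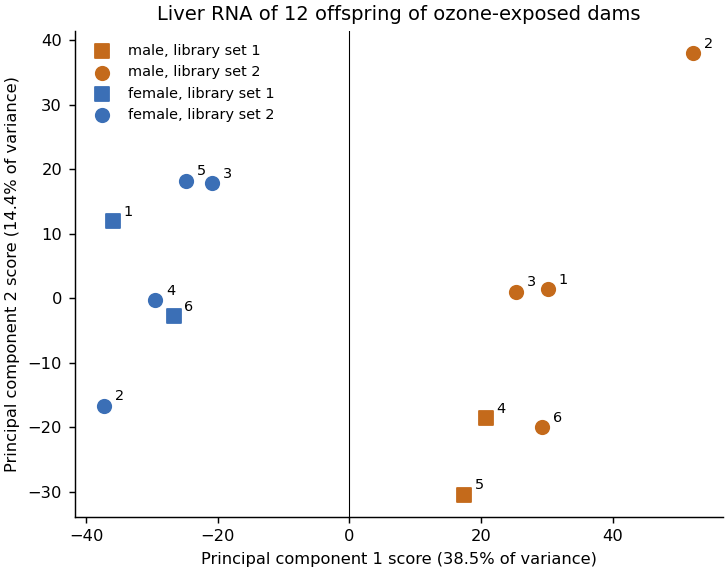
Principal component scores of the 12 livers, with colour for sex, shape for library set and the animal's replicate number beside each point. All 6 males lie above 17 and all 6 females below -20 on the first component, and male 2 stands apart from the other males on both axes.

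Of 12217 gene IDs with enough counts to test, 540 (4.42%) differed between males and females at an adjusted p under 0.05 (edgeR quasi-likelihood test, Benjamini-Hochberg). The difference ran both ways: 276 IDs (2.26%) were higher in males and 264 (2.16%) were higher in females. A difference of at least 2-fold was reached by 248 of them (2.03%), 142 higher in males and 106 higher in females. At an unadjusted p under 0.05 there were 2098 IDs, where 611 would be expected by chance. The median size of the called differences was 1.03 on the log2 scale in males' favour and 0.83 in females' favour, with median standard errors of 0.20 and 0.16. Standard errors (SE) of log2 fold changes are here back-calculated, as the fold change divided by the square root of the edgeR F statistic. Over all tested IDs the median size was 0.16. DESeq2 called 852 IDs on the same counts, 423 male-higher and 429 female-higher.

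The 6 males and the 6 females did not overlap in CPM for 466 of the 12217 IDs (3.81%), 229 higher in males and 237 higher in females. Among the 540 called IDs, which were chosen on the same difference, 372 did not overlap. Calls were more frequent among abundant transcripts. With the IDs cut by mean count into 4 classes of equal size, 3.08% were called in each of the lower classes, 4.85% in the next and 6.68% in the highest. The median size of a called difference went the other way, from 1.46 log2 in the lowest class to 0.76 in the highest.

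**Figure D2:**
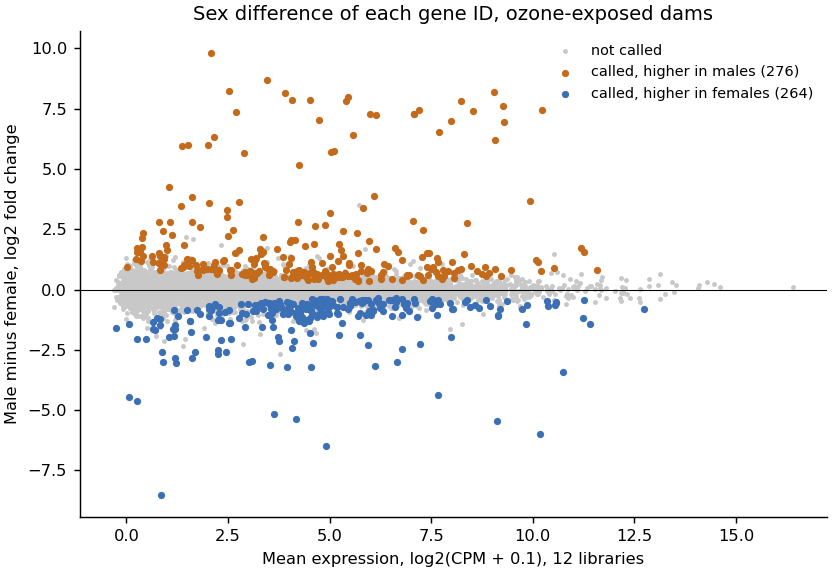
Male minus female log2 fold change of every tested gene ID against its mean expression in the 12 libraries, log2(CPM + 0.1). Grey IDs were not called, orange ones (276) were called higher in males and blue ones (264) higher in females, and most of the called IDs beyond 4 in either direction are orange.

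The called IDs held few very large differences and many small ones, and the largest were mostly male-higher. Among male-higher IDs, 66 differed by at least 4-fold, 34 by at least 16-fold and 28 by at least 64-fold. Among female-higher IDs these counts were 37, 9 and 2. At the small end, 48 male-higher and 66 female-higher IDs differed by less than 1.5-fold. A fold against a sex with almost no counts depends on the model's handling of zeros. For 12 male-higher and 3 female-higher IDs the other sex averaged 3 counts per library or fewer. With those set to the bound that 3 counts per library allow, 33 and 6 IDs reached 16-fold.

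The 34 male-higher IDs of at least 16-fold had a mean level between 3.71 and 2361 CPM in males, with a median of 75.9. In females their median was 0.778 CPM and their highest mean 15.5. The 9 female-higher IDs of this size had means of 1.83 to 2269 CPM in females, with a median of 35.0, and a median of 0.697 CPM in males. Neither group of IDs showed any overlap between the sexes. An all-or-none pattern, with at most 3 counts in each animal of one sex and at least 10 in each of the other, was met by 7 IDs higher in males and 3 higher in females. The authors' counting gave fractional values to 30 of the 43 IDs of at least 16-fold and to 214 of all 540 (39.6%), against 34.7% of all tested IDs. Fractional values can arise where reads are shared between genes, so such an ID may hold reads of a near-identical relative, and 4 called IDs had the same counts as another ID.

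The genes described one by one were taken by a rule: the largest fold changes in each direction among called IDs with a mean count of at least 50 and no overlap between the sexes. All 4 were fractional in 6 to 12 of the 12 libraries and are uncertain as to which relative the reads came from. ENSRNOG00000033130, the male-higher ID with the largest such change, was read at 14.9, 49.9, 1.74, 4.56, 8.87 and 49.7 CPM in males 1 to 6. In the females it was read at 0.180 CPM in female 1 and 0.0286 CPM in female 6, and at 0 in the other 4. Every male was above every female, but the males ranged widely, with males 2 and 6 highest and male 3 lowest. The females' 3 counts in all gave a ratio of summed, library-scaled counts of 661, with a 95% exact counting interval of 226 to 3209. The fitted log2 fold change was 8.70 ± 1.17 (SE, 6 animals per sex, edgeR adjusted p = 0.00117).

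ENSRNOG00000050682 followed a like order among the males, at 7.57, 26.6, 1.82, 1.73, 6.39 and 23.1 CPM in males 1 to 6. In the females only female 1 (0.0898 CPM) and female 5 (0.0922 CPM) had a count, 1 each. Males 2 and 6 were again highest and males 3 and 4 lowest, with no overlap between the sexes. The ratio of summed counts was 511 (95% exact counting interval 141 to 4229), and the log2 fold change was 8.22 ± 1.05 (SE, 6 animals per sex, edgeR adjusted p = 0.000702). These counting intervals cover counting error only and not the spread between animals.

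ENSRNOG00000051257 was the female-higher ID with the largest change by the rule. It was read at 60.0, 81.6, 46.3, 58.8, 39.9 and 67.7 CPM in females 1 to 6. In males 1 to 6 it was read at 0.932, 0.691, 0.151, 0.183, 1.72 and 0.399 CPM. The lowest female was far above the highest male, male 5. The log2 fold change was -6.50 ± 0.36 (male minus female, SE, edgeR adjusted p = 1.69e-07).

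ENSRNOG00000004692 was a much more abundant female-higher ID, with 1952, 1997, 1740, 2153, 2818 and 2954 CPM in females 1 to 6. The males had 54.3, 12.0, 20.8, 58.8, 78.6 and 15.7 CPM. All males thus kept a measurable level, and males 1, 4 and 5 were higher than males 2, 3 and 6. The log2 fold change was -5.99 ± 0.43 (SE, edgeR adjusted p = 3.16e-06).

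**Figure D3:**
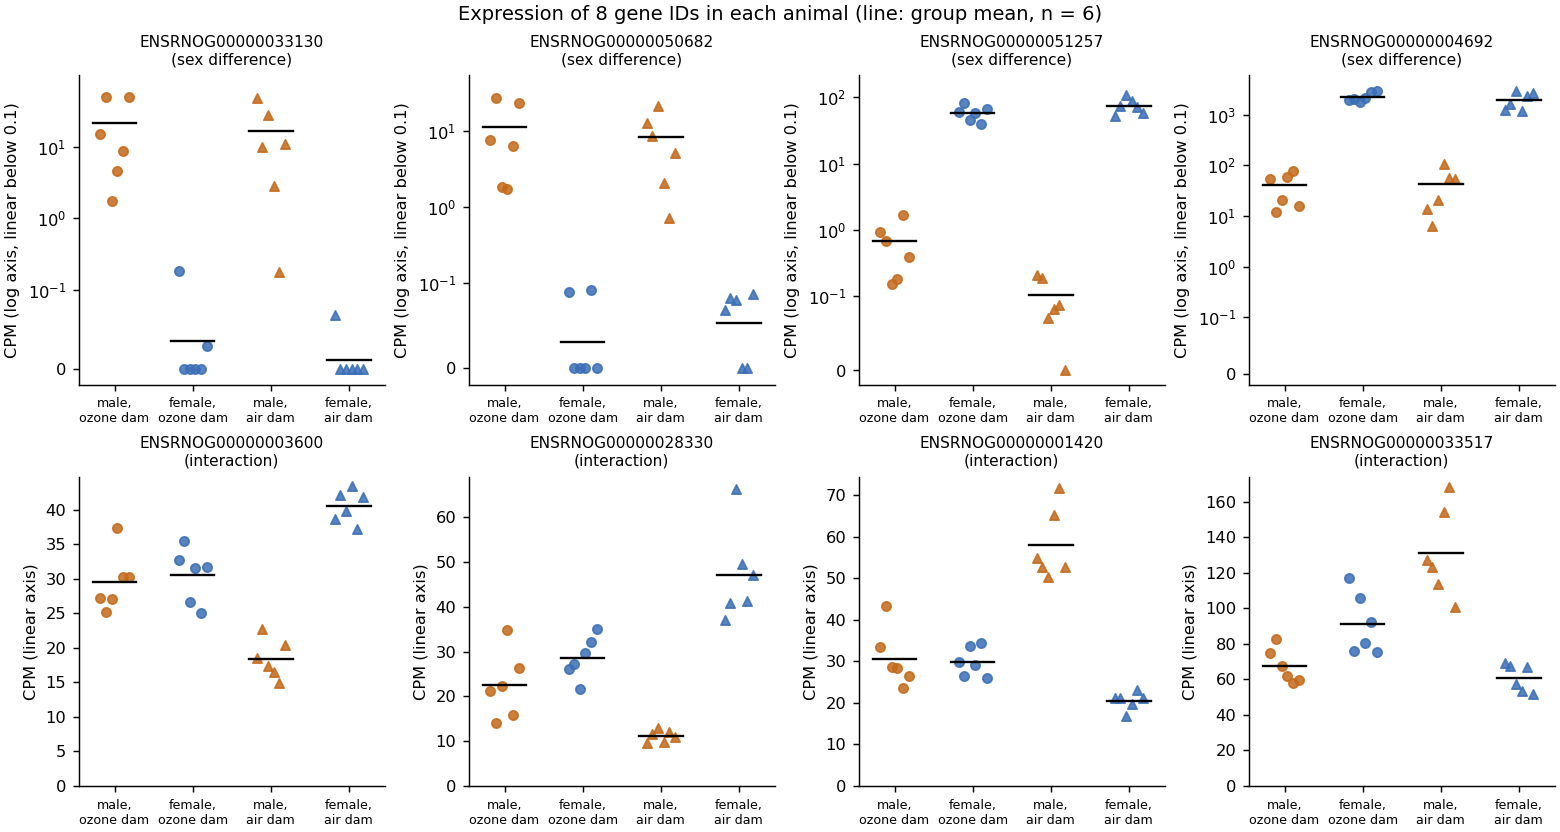
CPM of 8 gene IDs in each animal, with a line at each group's mean (n = 6). In the 4 IDs taken for the sex difference (log axis, linear below 0.1) males and females of ozone-exposed dams do not overlap. In the 4 taken for the interaction (linear axis) they overlap, while males and females of air-exposed dams do not. In ENSRNOG00000033517 that overlap rests on male 2 alone.

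As a share of all liver counts, the 276 male-higher IDs took 4.88% ± 0.83 in males and 1.84% ± 0.14 in females (SD, n = 6 each). The 264 female-higher IDs took 2.86% ± 0.40 in males and 5.75% ± 0.61 in females. Both lists were chosen for that difference, so these shares describe its weight in the transcriptome and carry no test. The concentration of counts in a few genes was another matter and was tested. The 10 most abundant IDs took 24.2% ± 1.07 of counts in males and 22.6% ± 2.11 in females (SD, n = 6 each, exact two-sided permutation p = 0.128, adjusted p = 0.383 over 3 such shares). The shares of the most abundant ID and of the 100 most abundant gave adjusted p = 0.639 and 0.636 in the same exact permutation test.

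Males varied more among themselves than females, but not once male 2 was left out. Over 9435 IDs with a mean count of at least 50, the median SD of log2 CPM was 0.257 in males and 0.217 in females, and 62.3% of IDs had the larger SD in males. Without male 2 the males' median SD was 0.209, and 47.8% of IDs varied more in males. Male 2 also lay farthest in the male direction: its median deviation from the male mean was 0.29 log2 on male-higher IDs and -0.22 log2 on female-higher ones. Males 4 and 5, the set 1 males, lay the other way on male-higher IDs, at -0.13 and -0.15. The part of library set in these deviations was not tested.

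The sex difference was also read separately in the library sets, which share no animals. Set 1, with 2 animals per sex, gave 53 called IDs and set 2, with 4 per sex, gave 307. Of 12053 IDs tested in both, 59.4% had the same sign in both sets. All 51 IDs called in set 1 and tested in set 2 kept their sign there, as did 288 of the 296 called in set 2 (97.3%) when read in set 1. Those 296 had a median size of 1.298 log2 in set 2 and 1.12 in set 1. Both sets called 45 IDs, all in the same direction.

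Leaving out each of the 12 animals in turn gave between 404 (without female 5) and 555 (without female 6) called IDs. All 12 of these fits called 326 of the 540 IDs (60.4%), 175 male-higher and 151 female-higher. The IDs that held were the larger differences, with a median size of 1.23 log2 and 206 of at least 2-fold, whereas the other 214 had a median of 0.62. Without male 2 and female 6 together, the 2 animals that stand apart on the first component or in depth, 479 IDs were called and 392 of the 540 kept their call. At the other side of the threshold, 103 IDs differed by at least 2-fold and were not called.

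The question of whether the sex difference depended on the dams' exposure was put to all 24 livers in 1 fit. In offspring of air-exposed dams 6606 of 12731 IDs (51.9%) differed between the sexes, against 742 in offspring of ozone-exposed dams in the same fit. The interaction, which tests the difference between these sex differences for each ID, was called for 2998 IDs (23.5%), 1555 with a more positive and 1443 with a more negative male minus female difference after maternal ozone (edgeR, adjusted p under 0.05). The SD of the log2 sex differences over IDs with a mean count of at least 50 was 0.56 with ozone-exposed and 0.82 with air-exposed dams. These SDs include estimation error. With each of the 12 offspring of ozone-exposed dams left out in turn, the interaction count ran from 2394 (without male 6) to 3811 (without male 2). No animal of the air-exposed dams was left out. The dam groups also differ in rat numbers and in their runs of library index numbers. An effect of these on the interaction cannot be told apart from one of maternal exposure.

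The 540 sex-different IDs of the ozone-exposed dams' offspring were largely shared with the air-exposed dams' offspring, a separate set of animals. Of the 540, 505 had the same sign there and 419 were also called in the same direction, 210 of the 276 male-higher and 209 of the 264 female-higher. With air-exposed dams 51.9% of all 12731 IDs were called in either direction, so calls there were common in any case. No same-sign share over all IDs is given beside the 505. Only 6 of the 540 were called in the opposite direction, 1 male-higher and 5 female-higher. The median difference of the 540 in the direction called was 0.91 log2 with ozone-exposed and 0.88 with air-exposed dams in the 24-library fit, although the choice of IDs favours the first. The interaction was called for 89 of the 540 (16.5%), against 23.5% of all IDs, though the 540 were chosen on one side of that contrast. Of these 89, 18 had the same sign and a larger difference with ozone-exposed dams, 38 the same sign and a smaller one, and 33 opposite signs. All 34 male-higher and all 9 female-higher IDs of at least 16-fold were called in the same direction with air-exposed dams. The interaction was called in 1 of each, but its median standard error was 1.11 log2 in the 34 and 0.76 in the 9, which leaves changes of several-fold undetectable.

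**Figure D4:**
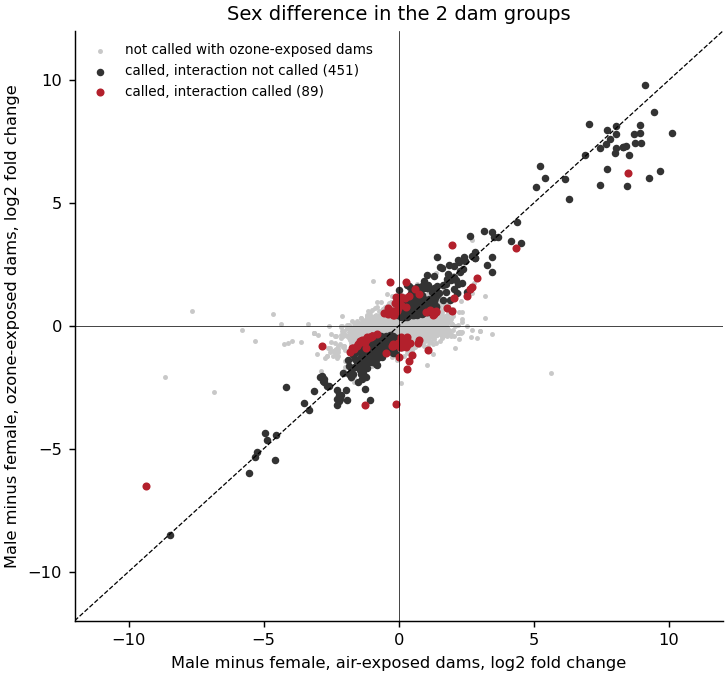
Male minus female log2 fold change of each gene ID with ozone-exposed dams (vertical, 12-library fit) against that with air-exposed dams (horizontal, 24-library fit), with the dashed line marking equal differences. IDs called with ozone-exposed dams are black where the interaction was not called (451) and red where it was (89), and all 43 called IDs of at least 16-fold keep their sign.

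The share of IDs called the same way in both dam groups was highest among the largest differences. Read from the air-exposed dams' side, 3180 male-higher and 3276 female-higher IDs were called there and tested in the 12 livers, and 6.60% and 6.38% of them were called the same way with ozone-exposed dams. For male-higher IDs this share was 2.92% below 1.5-fold, 4.13% from 1.5 to 2-fold and 8.13% from 2 to 4-fold. It was 48.5% of 66 IDs from 4 to 16-fold and 97.4% of 38 IDs from 16-fold up. For female-higher IDs it was 2.34%, 5.62% and 11.4% in the lower classes, 27.9% of 68 IDs from 4 to 16-fold and 52.6% of 19 IDs from 16-fold up. A larger difference is easier to call in 12 livers, and the part of this in the rise was not tested. Over all 12217 tested IDs, 2.26% were called male-higher and 2.16% female-higher with ozone-exposed dams. The shares below 1.5-fold lay near these. The share with the same sign, which needs no second call, was 68.4%, 73.2%, 67.8%, 74.2% and 97.4% in the male-higher classes in this order. In the female-higher classes it was 63.9%, 76.3%, 87.8%, 95.6% and 84.2%. In neither direction did this same-sign share rise at every step.

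The sizes did not follow the call shares in both directions. For male-higher IDs the median interaction in the direction called was -0.35, -0.64, -1.07, -1.13 and -0.81 log2 from the lowest to the highest class. For female-higher IDs it was -0.36, -0.60, -0.94, -1.40 and -2.87 log2. The interaction was called in 39.4% of the male-higher and 41.2% of the female-higher IDs of 4 to 16-fold. The 701 male-higher IDs of 2 to 4-fold with air-exposed dams had a median difference of 1.22 log2 there and 0.13 with ozone-exposed dams, and the interaction was called in 467 of them. The 694 female-higher IDs of this class had medians of 1.20 and 0.28, with the interaction called in 418. In the 38 male-higher IDs of at least 16-fold the medians were 8.03 and 7.14, with the interaction called in 3. In the 19 female-higher IDs of that size they were 5.25 and 2.68, with the interaction called in 7. The median standard error of the interaction was 0.30 for the 701 and 1.09 for the 38, so the test could show far smaller changes in the first. Medians where the IDs were chosen are raised by that choice, which also moves the interaction medians towards more negative values.

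**Figure D5:**
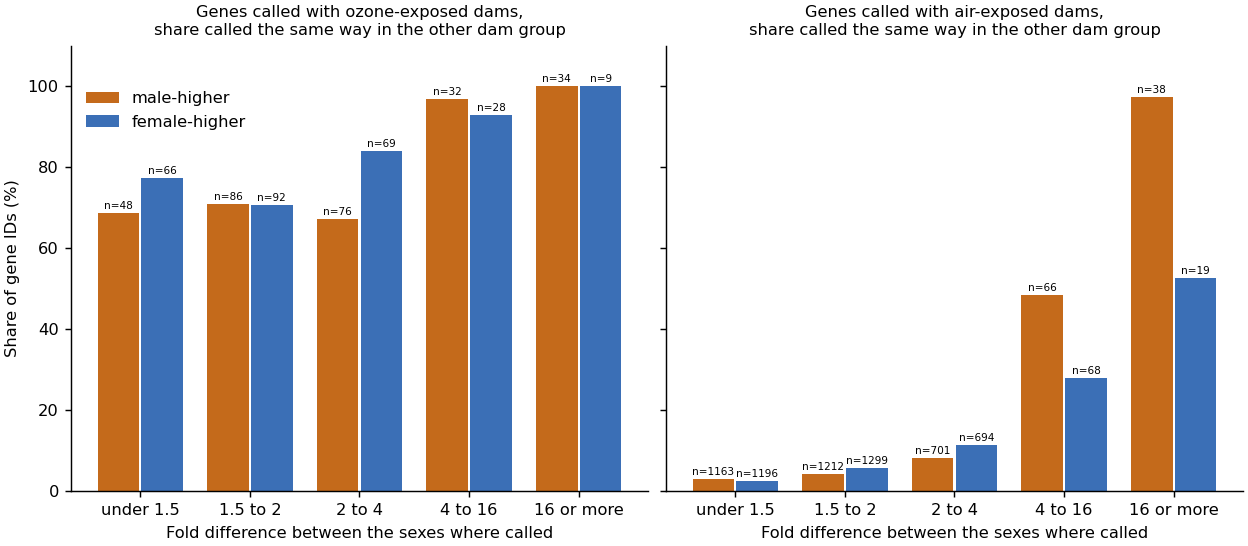
Share of gene IDs called for sex in one dam group that were called in the same direction in the other, by direction and by the fold difference where they were called, with the number of IDs above each bar. With air-exposed dams as the start (right) the share goes from 2.92% to 97.4% in male-higher IDs and from 2.34% to 52.6% in female-higher ones, while with ozone-exposed dams as the start (left) it is 67.1% or more in every class. Over all tested IDs, 2.26% were called male-higher and 2.16% female-higher with ozone-exposed dams. With air-exposed dams 51.9% of all tested IDs were called in either direction.

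Each animal was placed on a scale made from IDs chosen in the other dam group: the mean log2 CPM of 805 male-higher minus that of 781 female-higher IDs, all at least 2-fold with air-exposed dams. On this scale the males of ozone-exposed dams stood at 0.35 ± 0.65 and the females at -0.73 ± 0.34 (SD, n = 6 each). The sexes did not overlap but nearly touched, with male 4 at -0.27 and female 3 at -0.29. Male 2 stood highest at 1.52. The males of air-exposed dams stood at 1.52 ± 0.23 and the females at -1.48 ± 0.37, but these animals chose the IDs. Within library sets the males stood at -0.18 (set 1, n = 2) and 0.62 (set 2, n = 4) and the females at -0.83 and -0.68.

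The IDs with the smallest interaction p in each direction showed no called sex difference after maternal ozone. In the order given below, the 4 IDs had fractional values in 0, 24, 7 and 23 of the 24 libraries, so some may also hold reads of a relative. ENSRNOG00000003600 was read at 25.2 to 37.4 CPM in males (median 28.7) and at 24.99 to 35.5 CPM in females (median 31.7) of ozone-exposed dams. In offspring of air-exposed dams it was 14.9 to 22.8 CPM in males (median 17.9) and 37.2 to 43.4 CPM in females (median 40.8). The sexes overlapped in the first group and not in the second, and the interaction was 1.10 ± 0.14 log2 (SE, edgeR adjusted p = 5.43e-05). ENSRNOG00000028330 had means of 22.5 CPM in males and 28.6 in females of ozone-exposed dams, against 11.1 and 47.03 with air-exposed dams. Its interaction was 1.72 ± 0.25 log2 (SE, edgeR adjusted p = 0.000224).

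ENSRNOG00000001420 went the other way. With ozone-exposed dams it was read at 23.5 to 43.3 CPM in males (median 28.6) and at 26.05 to 34.4 CPM in females (median 29.5). With air-exposed dams it was 50.3 to 71.7 CPM in males (median 53.8) and 16.7 to 23.1 CPM in females (median 21.2). The sexes again overlapped only with ozone-exposed dams, and the interaction was -1.46 ± 0.17 log2 (SE, edgeR adjusted p = 5.43e-05). ENSRNOG00000033517 had means of 67.5 CPM in males and 91.2 in females of ozone-exposed dams, against 131 and 61.0 with air-exposed dams, an interaction of -1.54 ± 0.19 log2 (SE, edgeR adjusted p = 5.43e-05). With ozone-exposed dams only male 2, at 82.8 CPM, was above the lowest female, at 75.3 CPM. The male minus female difference was -0.43 log2 there and 1.10 with air-exposed dams, so the sign was opposite although the first was not called. For the 4 IDs the sex difference with ozone-exposed dams had edgeR adjusted p = 0.890, 0.378, 0.936 and 0.10 in the order given.

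The large female-higher ID ENSRNOG00000051257 was among the 89 with a called interaction. Its male minus female difference was -6.50 log2 in the 12 livers and -9.36 with air-exposed dams, an interaction of 2.87 ± 0.73 log2 (SE, edgeR adjusted p = 0.00761). The males of air-exposed dams had 0 to 2 counts each, at most 0.208 CPM, so the fitted difference there is no firm size. The males of ozone-exposed dams had 2 to 18 counts each. For the other 3 IDs taken for the sex difference the interaction was not called. ENSRNOG00000004692 differed by -5.54 log2 with air-exposed dams, an interaction of -0.25 ± 0.76 (SE, edgeR adjusted p = 0.842). ENSRNOG00000033130 differed by 9.46 and ENSRNOG00000050682 by 7.05 log2 there, with interactions of -0.52 ± 3.69 and 1.20 ± 2.81 (SE, edgeR adjusted p = 0.934 and 0.792). The interaction of those male-higher IDs was too imprecise to show anything but a very large change. Their back-calculated SEs are themselves rough, because the females had almost no counts.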

How the data were processed

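Liver polyA-selected RNA (RIN above 7) was sequenced on an Illumina NextSeq instrument, as the labels' protocols state. Partek, STAR 2.6.1d, DESeq2 and build rn6 stand in the submitters' processing notes without a role or order. For annotation, strand and filters, the setting is not given in the sources used here. Deposited by the authors were expected counts per gene in 1 table per sex, not normalized, per the file headers and values. They were rounded and the tables joined by ID. The 23 library columns that match none of the 24 samples were not used. Replicate pairs of 1 sex differed beyond counting noise (chi-square per degree of freedom 28.6 to 126).

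Testing used edgeR 4.0.16 (robust quasi-likelihood, TMM, filterByExpr with minimum count 10 and total 15, library set as a term, Benjamini-Hochberg, adjusted p under 0.05) in R 4.3.3. CPM used TMM factors over 24 libraries, and log2 CPM a prior count of 2, with factors over the 12 libraries for the principal components. A count of 3 equals 0.0859 to 0.350 CPM across the 12 libraries. Alternatives were DESeq2 1.42.0, limma 3.58.1 (voom), other scalings, filters and library subsets. The scripts were tested on simulated data. Named IDs were the first 2 per direction by the stated rules. The animals and lists were chosen with earlier results of these data known. The 37 gene and marker lists could not be tested without symbols, nor could summed marker levels.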

Additional observations from a re-analysis of the deposited data

Results flagged for a closer look

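Over 24 groups of 6 values checked for a value far from the rest, 3 had one, and chance alone flags a few. Female 6 had 3.623e+07 total counts, where the other 5 females had 1.0126e+07 to 1.20946e+07. With its counts thinned to the median total, 548 IDs differed between the sexes and 520 of the 538 IDs called before and still tested kept their call. Male 2 had a first principal component score of 52.24, where the other males had 17.4 to 30.1. ENSRNOG00000033130 was read at 0.1796 CPM in female 1, which is 2 counts, where the other females had at most 0.0286 CPM.

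The sex difference differed between offspring of ozone-exposed and air-exposed dams for 2998 IDs by the interaction test (edgeR, adjusted p under 0.05). Of these, 2829 differed between the sexes with air-exposed dams, against 51.9% of all IDs, but the interaction contains that difference. In the 12 livers of ozone-exposed dams' offspring 89 of them were called, where 4.42% of all tested IDs were. The other 2909 were not called or not tested there. Rat numbers do not overlap between the dam groups, and each group of sex and maternal exposure has its own runs of library index numbers. An effect of either order and one of maternal exposure cannot be told apart.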

How the results depend on the processing

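The sex difference count of 540 lay between 469 and 742 with voom, other scalings, other filters, no library set term, identical IDs kept once, a thinned deepest library, 2 animals left out, and all 24 libraries in 1 fit. DESeq2 called 852 (423 male-higher, 429 female-higher), among them 538 of the 539 IDs it could test. Library set 1 alone called 53 (40 and 13, all 53 at least 2-fold) and set 2 alone 307 (172 and 135), with fewer animals in each. Leaving out 1 animal gave 404 to 555 in all, 210 to 293 male-higher, 182 to 262 female-higher and 228 to 260 of at least 2-fold. The interaction count ranged from 2394 to 3811 with 1 of the 12 offspring of ozone-exposed dams left out and from 2634 to 3685 under the other alternatives. The named IDs kept direction and call in all but 2 of their 188 refits: ENSRNOG00000033130 in set 2 alone (log2 fold change 11.37, edgeR adjusted p = 0.162) and ENSRNOG00000050682 in set 1 alone (7.06, adjusted p = 0.164), whose cause was not tested. No result reversed. No paired analysis was possible because replicate numbers were given in accession order. Depth limits IDs near 3 counts per library, where folds have no firm size.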
